A study of Mus musculus with 12 samples.

Results

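The genes described here were 9 regulators of G-protein signalling (RGS genes) in bone marrow-derived macrophages (BMDMs), out of 48526 genes in the count table. Their symbols are Rgs1, Rgs2, Rgs3, Rgs10, Rgs12, Rgs14, Rgs16, Rgs18 and Rgs19, and each was found in the table through its Ensembl identifier. The list was selected on earlier results of these same libraries, with no threshold stated, and the lower Rgs1 level of stimulated knockout cells was among those results. The values below therefore describe these libraries, the calls come from a fit to all genes tested, and none of them is independent support for the choice of genes. For that reason the Rgs1 difference between genotypes after LPS, and its interaction with genotype that contains the same difference, are given as descriptions without a test. The fall of Rgs1 with LPS in KO uses the same KO LPS libraries and is a description too. Of 21 genes in the table named Rgs and a number, 11 passed the filter on low counts, and these were the 9 listed genes with Rgs9 and Rgs11.

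Total RNA of BMDMs was sequenced in 12 libraries, 3 in each of 4 groups. BMDMs are macrophages grown from bone marrow in medium conditioned by L929 cells. Homozygous HSS9 knockout (KO) mice carried a germline deletion at HSS9, an enhancer upstream of Tnf, and the wild-type (WT) controls were HSS9+/+. Cells of each genotype received PBS (UT) or lipopolysaccharide (LPS), the cell wall component of Gram-negative bacteria, for 6 hr. All mice were males 7 to 10 weeks old. The labels call the WT mice littermates, whereas the methods describe bought C57BL/6 mice and KO mice bred as homozygous pairs, so genotype and breeding cannot be told apart. The labels do not say whether replicates came from separate mice, and p-values therefore measure only the spread between these libraries.

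RGS proteins bind the active, GTP-loaded alpha subunit of a heterotrimeric G protein and speed up its GTP hydrolysis, which ends the signal from a G-protein-coupled receptor. In macrophages such receptors read chemokines, complement fragments, lipids, nucleotides and adrenergic ligands. The R4 subfamily (Rgs1, Rgs2, Rgs3, Rgs16 and Rgs18) consists mostly of small proteins with little beyond the RGS domain, the R12 subfamily (Rgs10, Rgs12 and Rgs14) contains larger scaffolds beside the small Rgs10, and Rgs19 belongs to the RZ subfamily.

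Library totals ranged from 26154533 to 36423921 counts. Levels are given as CPM, the counts relative to the library size, after scaling by the trimmed mean of M values (TMM), with the SD over 3 libraries. The scaling factors were 1.289 to 1.294 in WT UT, 1.155 to 1.176 in KO UT and 0.8115 to 0.8216 in the libraries with LPS. In bulk RNA, fewer expressing cells and less RNA per cell cannot be told apart. Tnf, which lies downstream of the deleted enhancer, stood at 826, 905 and 938 CPM in WT LPS and at 422, 449.5 and 425 CPM in KO LPS, lower in every KO library. The summed level of 7 macrophage markers was 5876 to 11180 CPM, and B cell, T cell and NK cell marker sums did not exceed 0.362 CPM. The sum of 5 neutrophil markers was 17.9 to 19.1 CPM in WT UT, 39.3 to 44.4 in KO UT, 46.6 to 74.8 in WT LPS and 62.8 to 72.5 in KO LPS. It was almost wholly S100a8 and S100a9, with Ly6g at 0 in every library, Elane at most 0.281 CPM and Mpo at most 0.578 CPM. In WT, S100a8 was 7.21 to 7.51 CPM without LPS and 41.4 to 67.3 with it. S100a9 moved the other way, from 10.5 to 11.7 CPM without LPS to 5.14 to 7.35 with it. The directions were the same in KO. The sum of 5 stromal markers was 7.16 to 7.55 CPM in WT UT, 10.1 to 11.4 in KO UT, 5.09 to 6.82 in WT LPS and 17.4 to 18.8 in KO LPS. The share of counts on short structured RNAs (7SL, 7SK, RNase P and RNase MRP) ranged from 2.92 to 3.16% in WT UT, 6.51 to 7.70% in KO UT, 3.93 to 6.72% in WT LPS and 3.15 to 3.29% in KO LPS. The genotypes did not overlap in this share with LPS or without it. Fits that hold the share as a covariate therefore cannot tell it apart from the groups, and their values below are descriptions.

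Unstimulated BMDMs carried mainly Rgs10, Rgs2 and Rgs1 transcripts, while Rgs10 and Rgs19 led with LPS per kb of merged exons. Per kb of merged exons, the summed level of the 9 genes was 279 ± 3.45 CPM per kb in WT UT and 84.3 ± 3.56 in WT LPS (SD, n = 3). The sum was 357 ± 1.97 CPM per kb in KO UT and 81.4 ± 1.05 in KO LPS. Rgs10 made up 38.1% of this sum in WT UT, Rgs2 34.0%, Rgs1 11.9%, Rgs19 8.75% and Rgs18 5.46%. In WT LPS the leading shares were 38.5% for Rgs10, 26.2% for Rgs19 and 13.95% for Rgs14, while Rgs2 had 4.89%. In KO LPS they were 42.8% for Rgs10, 28.4% for Rgs19 and 12.6% for Rgs14, and the Rgs1 share was 5.23% against 10.6% in WT LPS.

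The order of levels per kb of merged exons in WT UT was Rgs10, Rgs2, Rgs1, Rgs19, Rgs18, Rgs14, Rgs12, Rgs3 and Rgs16, and no neighbours in this order overlapped between libraries. In KO UT the order was the same down to Rgs12, and only Rgs16 and Rgs3, at the bottom, overlapped. In WT LPS the order was Rgs10, Rgs19, Rgs14, Rgs1, Rgs2, Rgs18, Rgs3, Rgs12 and Rgs16, with overlap of Rgs2 with Rgs18, of Rgs3 with Rgs12 and of Rgs12 with Rgs16. In KO LPS the order was Rgs10, Rgs19, Rgs14, Rgs1, Rgs18, Rgs2, Rgs16, Rgs3 and Rgs12, with overlap of Rgs18 with Rgs2, of Rgs16 with Rgs3 and of Rgs3 with Rgs12. The length used matters for Rgs1, whose annotated exons merge to 6947 bases around 741 bases of coding sequence. Per kb of coding sequence Rgs2 led in WT UT, at 507 CPM per kb, followed by Rgs1 at 311 and Rgs10 at 290.1, and Rgs1 and Rgs10 overlapped there. On that scale WT LPS had Rgs10 at 88.5, Rgs1 at 84.0 and Rgs19 at 63.6 CPM per kb, with overlap of Rgs10 and Rgs1, and KO LPS had Rgs10 at 95.1, Rgs19 at 66.6 and Rgs1 at 39.9.

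**Figure D1:**
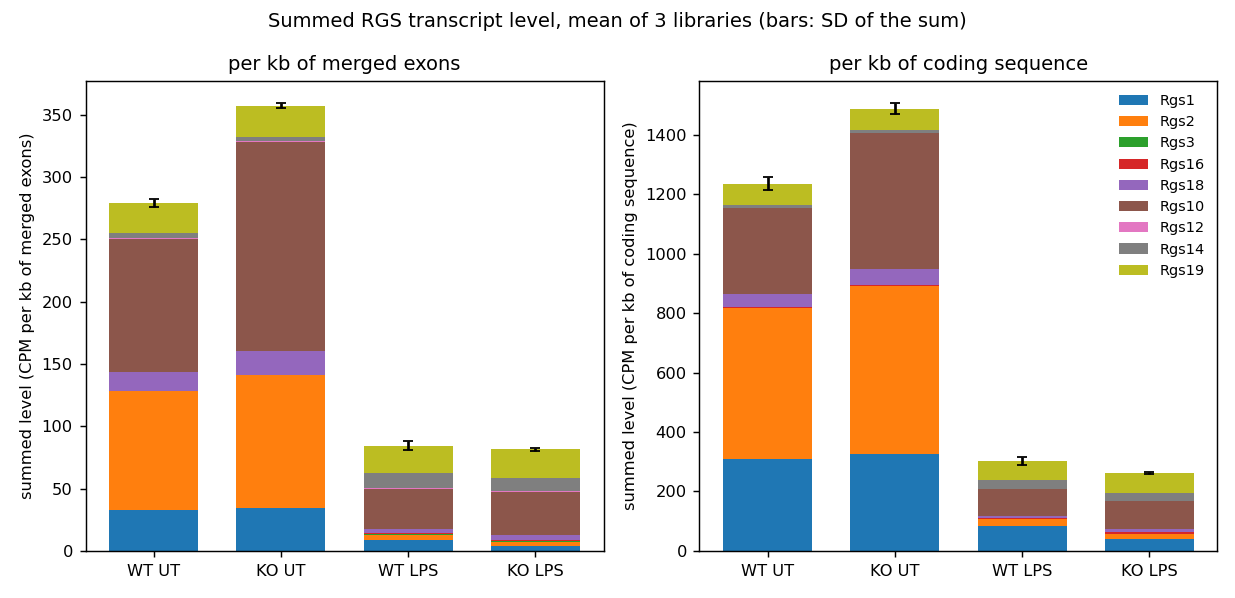
Stacked bars give the mean summed level of the 9 genes in each group, in CPM per kb of merged exons (left) and of coding sequence (right), with the SD of the sum over 3 libraries as error bars. The sum per kb of merged exons is 279 in WT UT and 357 in KO UT, against 84.3 in WT LPS and 81.4 in KO LPS, and Rgs2 and Rgs1 take a large part of the unstimulated bars.

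The first comparison asked how LPS changed each gene in WT cells. Of the 9 genes, 4 fell (Rgs1, Rgs2, Rgs10 and Rgs18) and 2 rose (Rgs14 and Rgs16), where a call needs an adjusted p below 0.05 in the quasi-likelihood test of edgeR and a log2 fold change beyond 1 in size. Over all genes tested, 18.7% were called lower and 19.1% were called higher in WT LPS than in WT UT. In KO cells Rgs2, Rgs10 and Rgs18 fell again, and the 3 that rose were Rgs3, Rgs14 and Rgs16. Over all genes tested, 19.3% were called lower and 17.7% higher in KO LPS than in KO UT. Rgs1 was lower in KO LPS too, but its KO LPS level was known when the list was made, so it is not counted there. The median log2 fold change of the 9 genes was -0.28 in WT and -0.12 in KO, and over all genes tested it was 0.05 and -0.06. The plot of changes with LPS shows both genotypes for each gene.

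**Figure D2:**
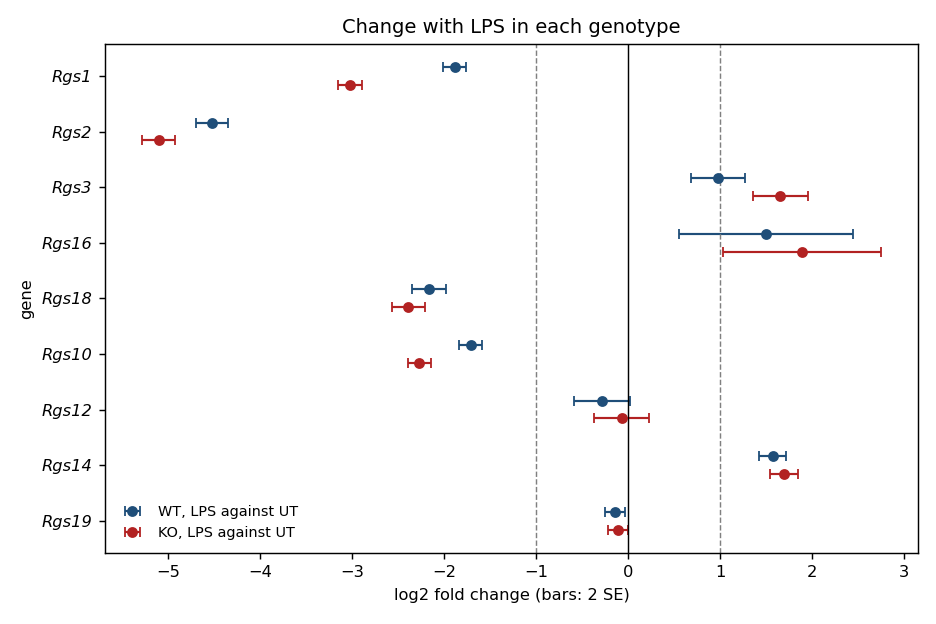
Points give the log2 fold change of LPS against UT in WT (blue) and KO (red) for each gene, with bars of 2 SE; dashed lines mark a log2 fold change of 1 in either direction. Rgs2 lies farthest to the left in both genotypes (-4.52 and -5.10), the Rgs1 points are more than 1 unit apart, and Rgs12 and Rgs19 lie near 0.

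Rgs2, a small R4 protein that preferentially acts on Gq, showed the largest fall of the 9 genes. It stood at 339, 346 and 348 CPM in WT UT and at 15.4, 16.6 and 12.9 CPM in WT LPS. In KO cells it stood at 382, 383 and 389.9 CPM without LPS and at 9.89, 10.7 and 13.03 CPM with LPS. No library with LPS came near any library without it in either genotype. The log2 fold change with LPS was -4.52 ± 0.09 (SE) in WT and -5.10 ± 0.09 in KO, or 22.9-fold and 34.3-fold lower.

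Rgs1, an R4 protein best known for damping chemokine receptor signals in lymphocytes, also fell. Its levels were 218, 236 and 237 CPM in WT UT and 61.6, 64.2 and 61.0 CPM in WT LPS. In KO they were 228, 241 and 253 CPM without LPS and 30.9, 29.7 and 28.1 CPM with LPS. The UT libraries of the genotypes overlapped, whereas every KO LPS library lay below every WT LPS library. The fall with LPS was 3.70-fold in WT (log2 fold change -1.89 ± 0.06 SE) and 8.14-fold in KO (-3.02 ± 0.06 SE). B cell marker sums were at most 0.150 CPM and T cell marker sums at most 0.174 CPM in any library.

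Rgs18, an R4 gene expressed in platelets and other haematopoietic cells, fell from 29.6, 31.7 and 31.6 CPM to 7.90, 7.09 and 5.66 CPM in WT. In KO it fell from 38.2, 36.9 and 39.8 CPM to 7.17, 7.32 and 7.47 CPM. The log2 fold changes were -2.16 ± 0.09 (SE) in WT and -2.39 ± 0.09 in KO. The genotypes overlapped with LPS and did not overlap without it. The summed level of 5 megakaryocyte and platelet markers, mostly Pf4, was 23.8 to 27.2 CPM in WT UT and 53.9 to 76.9 CPM in WT LPS. In KO it was 41.1 to 47.0 CPM without LPS and 73.8 to 76.6 CPM with it. This sum moved against Rgs18 under LPS and with it between the UT groups, but its markers did not move alike. Pf4 rose with LPS in both genotypes, whereas Gp9, at most 0.764 CPM, fell in both. Ppbp fell in KO, from 3.76 to 4.78 CPM without LPS to 2.63 to 3.27 CPM with it, and overlapped in WT. Itga2b was higher with LPS in KO and overlapped in WT, and Gp1bb was at most 0.211 CPM. The part of these markers in the Rgs18 level was not tested.

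Rgs10, a small R12 protein known to restrain inflammatory gene expression in macrophages and microglia, fell 3.28-fold in WT and 4.81-fold in KO. WT levels were 184, 177 and 185 CPM without LPS and 51.5, 59.8 and 55.6 CPM with it. KO levels were 292, 284 and 287 CPM without LPS and 59.6, 61.8 and 57.8 CPM with it. As for Rgs18, the UT groups of the genotypes did not overlap and the LPS groups did. The log2 fold changes with LPS were -1.71 ± 0.06 (SE) and -2.27 ± 0.06.

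Rgs14, an R12 scaffold that also binds Ras and Rap proteins and carries a GoLoco motif, rose. It went from 17.4, 17.0 and 15.9 CPM to 49.8, 51.5 and 48.2 CPM in WT, and from 14.6, 14.04 and 11.9 CPM to 43.7, 42.0 and 45.0 CPM in KO. The KO libraries lay below the WT libraries both without and with LPS. The log2 fold changes with LPS were 1.57 ± 0.07 (SE) and 1.69 ± 0.08.

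Rgs3, an R4 gene with short and long protein forms, stood at 3.04, 2.96 and 2.87 CPM in WT UT and 6.11, 5.66 and 5.61 CPM in WT LPS. In KO it stood at 2.75, 2.50 and 2.15 CPM without LPS and 8.93, 6.53 and 7.72 CPM with it. The KO libraries were thus below WT before LPS and above WT after it, with no overlap at either point. The log2 fold change with LPS was 0.97 ± 0.15 (SE, adjusted p = 4.43e-06, edgeR) in WT, short of the fold minimum, and 1.65 ± 0.15 in KO, where Rgs3 rose. In WT it passed the fold minimum at 1.05 in a fit to protein-coding genes alone.

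Rgs16, an R4 gene known to be induced in activated lymphocytes, had the fewest reads of the 9 genes, between 9 and 63 counts in any library. WT levels were 0.211, 0.331 and 0.510 CPM without LPS and 1.45, 1.03 and 0.471 CPM with it, so the groups overlapped. KO levels were 0.260, 1.03 and 0.405 CPM without LPS and 1.84, 2.37 and 2.05 CPM with it, with no overlap. The log2 fold change was 1.496 ± 0.475 (SE) in WT and 1.891 ± 0.430 in KO. The WT call was lost without WT LPS replicate 1 (1.09, adjusted p = 0.068, edgeR), and with the short structured RNA share as a covariate the KO value was -0.07. Exons of Gm28513 on the other strand overlap those of Rgs16. How the counting treated strand is not given, but Gm28513 itself had at most 6 counts in a library.

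Rgs12, an R12 scaffold, and Rgs19, an RZ protein that acts on Gi-class subunits, were not called in either genotype. Exons of Rgs12 overlap those of Gm43791 on the other strand, which had at most 1 count in a library. Rgs12 ranged from 3.68 to 6.08 CPM over the 12 libraries, with a log2 fold change with LPS of -0.28 ± 0.15 (SE) in WT and -0.07 ± 0.15 in KO. Rgs19 ranged from 47.6 to 58.2 CPM, with -0.15 ± 0.05 (adjusted p = 0.02, edgeR) in WT and -0.12 ± 0.05 (adjusted p = 0.0605, edgeR) in KO. The interval of 2 SE of the KO change was -0.37 to 0.23 for Rgs12 and -0.22 to -0.0075 for Rgs19, so changes beyond the fold minimum lay outside both intervals. Rgs19 reached an adjusted p of 0.242 in WT in a fit to protein-coding genes alone and 0.0619 without WT LPS replicate 1.

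**Figure D3:**
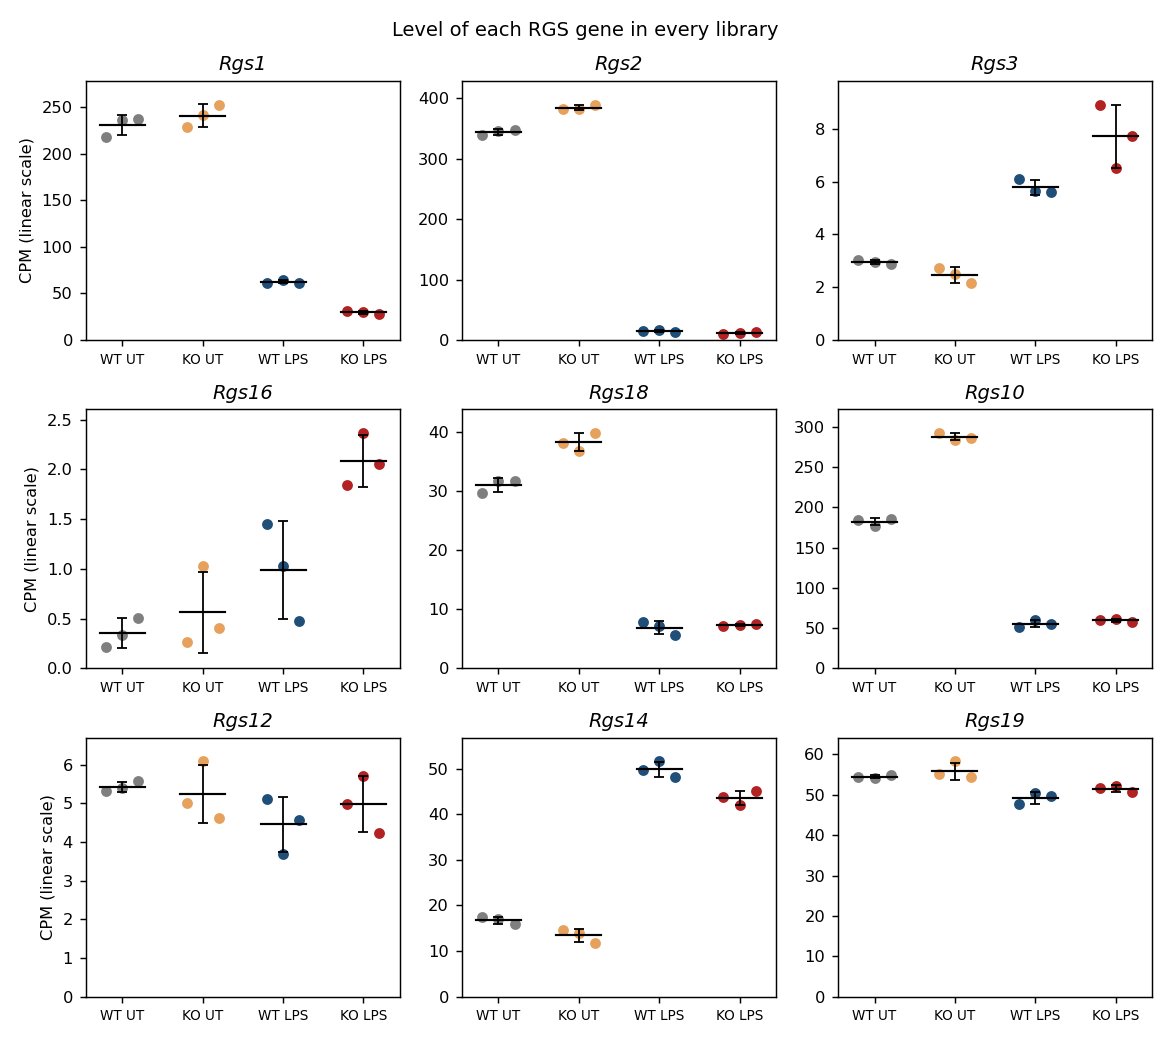
Each panel gives 1 gene on its own linear axis of CPM, with a point for each of the 3 libraries of a group, a line at the mean and bars of 1 SD. Rgs1, Rgs2, Rgs18 and Rgs10 are high without LPS and low with it, Rgs14 and Rgs3 are higher with it, and the Rgs16 points of WT UT (0.211 to 0.510 CPM) and WT LPS (0.471 to 1.45 CPM) overlap.

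Upstream sequence is shown for Rgs2, Rgs10 and Rgs16, the first 2 being genes that fell with LPS and the last a gene that rose. RefSeq windows of 250 bases before the annotated start (GRCm38.p6) were found for 6 of the 9 genes, namely Rgs2, Rgs3, Rgs10, Rgs12, Rgs16 and Rgs19, and not for Rgs1, Rgs14 and Rgs18. Bases inside an exon of the GENCODE gene were left off, and the Rgs10 window lies within the wider GENCODE span of that gene. Motifs were searched on both strands: the cyclic AMP response element core TGACG, the AP-1 motif TGANTCA, the kappaB motif GGGANNNNCC, the CCAAT box and the TATA box TATAA. Capitals mark the matches in these windows, written 5′ to 3′ on the strand of the gene.
Rgs2 (chr1:144004162-144004399, minus strand, 238 bases): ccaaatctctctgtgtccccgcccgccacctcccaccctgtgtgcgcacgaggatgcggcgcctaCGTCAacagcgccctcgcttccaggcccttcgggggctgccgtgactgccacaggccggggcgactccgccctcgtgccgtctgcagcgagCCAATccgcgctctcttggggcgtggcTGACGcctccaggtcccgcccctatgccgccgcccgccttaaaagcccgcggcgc
Rgs10 (chr7:128418174-128418422, minus strand, 249 bases): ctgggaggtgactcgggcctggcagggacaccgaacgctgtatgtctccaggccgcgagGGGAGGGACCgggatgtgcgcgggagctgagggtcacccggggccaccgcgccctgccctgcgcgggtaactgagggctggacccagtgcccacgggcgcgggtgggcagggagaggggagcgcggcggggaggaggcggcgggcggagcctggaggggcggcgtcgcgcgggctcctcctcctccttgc
Rgs16 (chr1:153740103-153740348, plus strand, 246 bases): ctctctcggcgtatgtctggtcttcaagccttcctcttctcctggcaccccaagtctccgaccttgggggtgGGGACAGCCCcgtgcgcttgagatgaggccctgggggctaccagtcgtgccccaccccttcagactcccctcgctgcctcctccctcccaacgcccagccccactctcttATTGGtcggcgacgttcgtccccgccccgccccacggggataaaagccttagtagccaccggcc

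The Rgs2 window held 2 matches to the cyclic AMP response element core and a CCAAT box, the Rgs10 window a match to the kappaB motif, and the Rgs16 window a kappaB match and a CCAAT box. Of 32536 distinct windows of 250 bases, with no exon bases removed, over all genes, 17.9% held the cyclic AMP core, 17.7% the kappaB motif, 33.8% a CCAAT box, 6.73% the AP-1 motif and 22.7% the TATA box. Of the bases outside exons, 2 of the 3 Rgs19 windows and 1 of 2 Rgs12 windows also held the kappaB motif, and neither gene was called with LPS, while the Rgs3 windows held only the TATA box. A match is a run of letters in the reference and does not show binding.

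Rgs2, Rgs1 and Rgs18 also share a place in the genome. They lie in this order on the minus strand (Rgs2 at chr1:143999338-144004161, Rgs1 at chr1:144242296-144249242 and Rgs18 at chr1:144752683-144775435, GRCm38), within 776 kb, with 238 kb between Rgs2 and Rgs1 and 503 kb between Rgs1 and Rgs18. The span holds 5 protein-coding genes, all of the Rgs family, and the other 2 are Rgs13 and Rgs21. Rgs13 had at most 1 count in a library and Rgs21 had 0 in all 12, and neither was tested. The 3 tested genes of the cluster all had lower levels with LPS in both genotypes. Rgs16 (chr1:153740349-153745468, plus strand) lies 8965 kb beyond Rgs18 and rose. The others are on different chromosomes, with Rgs19 at chr2:181688419-181693977, Rgs3 at chr4:62559847-62704001, Rgs12 at chr5:34949445-35039644, Rgs10 at chr7:128373621-128418758 and Rgs14 at chr13:55369732-55384687.

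The second comparison asked where KO cells differed from WT cells after LPS. Rgs1 was 2.104-fold lower in KO LPS (log2 fold change -1.07, with an interval of 2 SE from -1.20 to -0.95). Within batches 1, 2 and 3 the log2 ratio was -0.99, -1.11 and -1.11. Since Rgs1 was known to be lower here when the list was made, it is left out of the counts. Of the other 8 genes, 0 passed both limits by edgeR or by DESeq2, beside 1.25% of all genes tested, and 4 had an unadjusted p below 0.05. No share of all genes tested is given for unadjusted p-values, here or below, so those counts are only descriptions. Without the fold minimum, Rgs2 had an adjusted p below 0.05, beside 14.3% of all genes tested. Its log2 fold change was -0.42 ± 0.09 (SE, adjusted p = 0.00493, edgeR), although the libraries of the groups overlapped and the ratio within batch 3 was 0.01 against -0.64 and -0.63 in batches 1 and 2.

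Rgs16 and Rgs3 had higher values in KO LPS that did not pass. Rgs16 was 2.07-fold higher (log2 fold change 1.05 ± 0.42 SE, adjusted p = 0.1, edgeR), with no overlap between the groups. Its adjusted p was 0.031 without WT LPS replicate 1 and 0.0209 with no filter on low counts, so this value rests on few reads. Rgs3 was 1.33-fold higher (0.41 ± 0.14 SE, adjusted p = 0.0555, edgeR), and Rgs14 was 1.14-fold lower (-0.19 ± 0.07 SE, adjusted p = 0.0734, edgeR). The short structured RNA share of WT LPS was 3.93%, 5.23% and 6.72% in replicates 1, 2 and 3. The WT LPS library with the highest share had the lowest Rgs1, Rgs2, Rgs3, Rgs14, Rgs16 and Rgs18 levels of that group, but not the lowest Rgs10, Rgs12 or Rgs19 levels. The stromal marker sum was also higher in KO LPS than in WT LPS, beside the differences of Rgs1, Rgs2, Rgs3 and Rgs16, and its part in them was not tested. The part of the RNA share in the levels was not tested beyond the covariate. With it as a covariate the KO difference after LPS was -1.13 for Rgs1, -0.61 for Rgs2 and -0.28 for Rgs18, against 0.08 for Rgs18 without it.

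**Figure D4:**
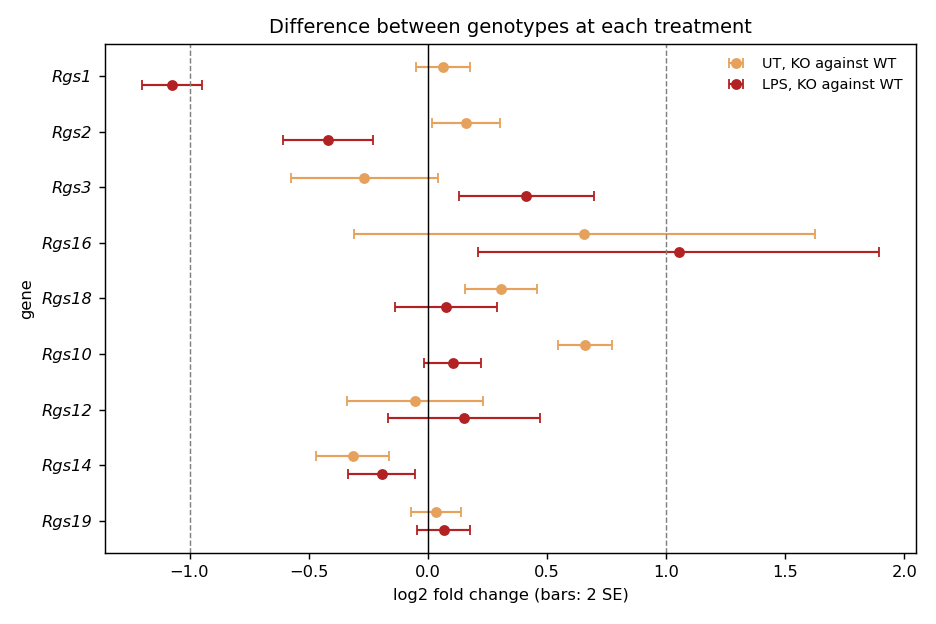
Points give the log2 fold change of KO against WT without LPS (orange) and with LPS (red), with bars of 2 SE; dashed lines mark a log2 fold change of 1 in either direction. Rgs1 after LPS (-1.07) lies beyond the dashed line and is far from its UT value (0.06), Rgs10 is higher in KO without LPS (0.66), and the Rgs16 bars are the widest.

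The third comparison asked where the genotypes differed before any stimulus. By edgeR 0 of the 9 genes passed both limits, beside 1.82% of all genes tested, by DESeq2 also 0, and 4 had an unadjusted p below 0.05. Without the fold minimum 3 genes had an adjusted p below 0.05, beside 23.8% of all genes tested. Rgs10 was 1.58-fold higher in KO UT (log2 fold change 0.66 ± 0.06 SE, adjusted p = 4.22e-08, edgeR), with within-batch ratios of 0.67, 0.68 and 0.63. Rgs18 was 1.24-fold higher (0.31 ± 0.08 SE, adjusted p = 0.00477, edgeR) and Rgs14 1.24-fold lower (-0.32 ± 0.08 SE, adjusted p = 0.00424, edgeR), each with no overlap between groups. The Rgs1 difference was 0.06 ± 0.06 (SE), with an interval of 2 SE from -0.05 to 0.18.

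The share of counts on short structured RNAs was higher in KO UT than in WT UT, and so were the sums of neutrophil and stromal markers given above. Of the stromal markers, Acta2 was 5.93 to 7.55 CPM in KO UT and 3.11 to 3.63 CPM in WT UT. The ranges of Col1a1, Col1a2, Col3a1 and Dcn overlapped between these groups. Whether other cells had a part in the differences was not tested. With the RNA share as a covariate the log2 fold change was 0.47 for Rgs10 (adjusted p = 0.0412, edgeR), 1.01 for Rgs18 (adjusted p = 0.00948) and -0.39 for Rgs14 (adjusted p = 0.274).

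The fourth comparison asked whether the LPS response itself differed between genotypes, by the interaction of genotype and LPS. For Rgs1 the KO response minus the WT response was -1.14 ± 0.09 (log2, SE), which is mostly the difference after LPS that was known when the list was made and is no separate test. Of the other 8 genes, 0 passed both limits by edgeR or by DESeq2, beside 2.16% of all genes tested, and 3 had an unadjusted p below 0.05. These 3 also had an adjusted p below 0.05, beside 16.8% of all genes tested. For Rgs2 the difference between responses was -0.58 ± 0.12 (SE, adjusted p = 0.00161, edgeR). For Rgs10 it was -0.55 ± 0.08 (SE, adjusted p = 0.000124, edgeR), in a gene whose genotypes differed without LPS and overlapped with it. For Rgs3 it was 0.68 ± 0.21 (SE, adjusted p = 0.0297, edgeR). The Rgs3 call depended on which libraries entered, since its adjusted p was between 0.0505 and 0.087 in 8 of the 12 fits that each left out a library. With the short structured RNA share as a covariate the adjusted p by edgeR was 0.627 for Rgs10 and 0.721 for Rgs3. The share itself differed between the groups, so this fit cannot separate it from genotype and LPS.

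Rgs9 and Rgs11, which belong to the R7 subfamily of neuronal and retinal RGS proteins, also passed the filter with low counts. Rgs9 stood at 0.211, 0.243 and 0.298 CPM in WT UT and 1.49, 1.75 and 1.13 CPM in WT LPS, and at 0.0578, 0.176 and 0.0759 CPM in KO UT and 1.49, 1.39 and 1.32 CPM in KO LPS. Its UT libraries held 2 to 14 counts and its LPS libraries 24 to 40, and it passed the filter through the LPS libraries, so its higher LPS level is a description with no test. Rgs11 was higher in KO UT, at 3.93, 3.91 and 4.30 CPM against 3.02, 2.03 and 2.21 CPM in WT UT (log2 fold change 0.75 ± 0.18 SE, adjusted p = 0.00353, edgeR), short of the fold minimum. The other 10 Rgs genes were not tested, and 4 of them had 0 counts in every library.

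The proteins around the RGS family were taken from lists of receptors, G-protein subunits, receptor kinases and arrestins, effectors and other G alpha modulators, of which 96 of 114 genes were tested. With LPS, 26 of these rose and 24 fell in WT, and 31 rose and 27 fell in KO, with a median log2 fold change of -0.03 in WT and 0.15 in KO. Over all genes tested, 19.1% passed as higher with LPS in WT and 17.7% in KO, while 18.7% and 19.3% passed as lower. Among 43 receptors tested, 18 rose and 11 fell in WT and 20 rose and 10 fell in KO. Fpr1 and Fpr2, receptors for formylated bacterial peptides, were at 1.08 ± 0.283 and 2.33 ± 0.569 CPM in WT UT and at 218 ± 8.27 and 336 ± 13.5 CPM in WT LPS (SD, n = 3). Gpr84, a receptor for medium-chain fatty acids, went from 1.95 ± 0.375 to 307 ± 10.3 CPM, and Hcar2, the niacin receptor, from 0.801 ± 0.319 to 118 ± 3.16 CPM. Cxcr4, the receptor for Cxcl12, fell from 256 ± 12.5 to 2.06 ± 0.321 CPM, the lysophosphatidic acid receptor Lpar5 from 13.2 ± 0.501 to 0.369 ± 0.173 CPM, and Gpr183, the oxysterol receptor, from 39.2 ± 2.31 to 2.89 ± 0.754 CPM.

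Downstream of the receptors, 2 of 10 alpha subunit genes fell and none rose in WT, where Gna12 went from 171 ± 6.57 to 29.6 ± 3.60 CPM. Gnai2, which encodes the alpha subunit on which most of these RGS proteins act, was at 245 ± 9.54 CPM in WT UT and 148 ± 15.1 CPM in WT LPS, short of the fold minimum. Of 11 beta and gamma subunit genes, 2 rose and 3 fell in WT, among them Gnb4, which rose from 23.5 ± 1.26 to 146 ± 9.43 CPM. Of 7 receptor kinase and arrestin genes, 1 rose (Grk3, from 19.4 ± 0.464 to 40.6 ± 0.636 CPM) and 3 fell, among them Arrb1, from 248 ± 6.06 to 53.7 ± 1.73 CPM. Of 19 effector genes, 4 rose and 5 fell, and of 6 other modulators of alpha subunits Gpsm2, which holds GoLoco motifs as Rgs14 does, rose from 8.96 ± 1.18 to 64.4 ± 7.69 CPM. The genes named in this paragraph were picked after their values had been seen.

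Between the genotypes, 0 of the 96 genes passed both limits with LPS or without it, by edgeR or by DESeq2, and 46 and 44 had an unadjusted p below 0.05. The unadjusted counts have no share of all genes beside them and are not read as a result about this pathway. At an adjusted p below 0.05 and any fold change, 32 did in each comparison, 27 of them higher in KO with LPS and 17 higher in KO without it, beside 14.3% and 23.8% of all genes tested. In the interaction 2 of the 96 genes passed both limits, a share near the 2.16% of all genes tested, and their values follow as a description. Cx3cr1, the fractalkine receptor, stood at 86.9 ± 3.74 CPM in WT UT, 52.4 ± 1.38 in KO UT, 55.0 ± 2.59 in WT LPS and 68.8 ± 2.07 in KO LPS (SD, n = 3), an interaction of 1.05 on the log2 scale. Gng11, a gamma subunit gene, stood at 8.28 ± 0.441, 11.3 ± 1.64, 7.39 ± 0.783 and 4.96 ± 0.328 CPM in the same groups, an interaction of -1.01. This count was 1 in 5 of the 12 fits that each left out a library.

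Genes whose profile over the 4 groups lay nearest to that of each RGS gene were found by the Euclidean distance between centred group means of log2 CPM, among genes with a mean of at least 5 CPM. They were Hmga2, Arhgap22 and Nptx1 for Rgs1 (distances 0.353 to 0.383), Cenpa, Tmem37 and Eps8 for Rgs2 (0.221 to 0.27), and Hagh, Pmp22 and Gm38399 for Rgs18 (0.0461 to 0.116). For Rgs10 they were Tmem141, Hist1h2ak and Pomk (0.137 to 0.182), for Rgs14 Zhx2, Diaph2 and Wdr37 (0.0398 to 0.0736), and for Rgs3 Egfr, Nab1 and Msn (0.103 to 0.126). For Rgs16 they were Slc7a7, Ccr3 and Ednrb (0.373 to 0.506), for Rgs12 Spryd4 and Smad5 (0.0241 and 0.0314), and for Rgs19 Spout1, Pkd2 and Vps45 (0.017 to 0.0216). These distances rest on 4 group means each and carry no test. Rgs1 and Rgs16 had no gene within 0.35 of their profile.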

How the data were processed

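Total RNA of 12 BMDM cultures was prepared by the authors as stranded libraries with globin depletion, and paired reads were aligned to GRCm38 with HISAT2 2.1.0 and counted per gene with featureCounts 2.0.0, after FastQC 0.11.9 and with SAMtools 1.17 (submitters' processing notes). The deposited table holds raw counts per gene. Annotation release, strand setting and handling of multi-mapped reads are not given in the sources used here.

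Identifiers were matched to GENCODE without their version (48144 of 48526, and the others held 0.122% of counts). Genes were filtered with filterByExpr (minimum count 10, minimum total 15), which left 15523. The quasi-likelihood test of edgeR 4.0.16 (limma 3.58.1, R 4.3.3) with TMM scaling was fitted to 4 group means over all libraries, with Benjamini-Hochberg adjustment over all genes tested. Calls needed an adjusted p below 0.05 and a log2 fold change beyond 1. Within-batch ratios added 0.1 CPM. The common biological coefficient of variation was 0.0712. The code was tested on simulated data.

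The genes and lists were chosen with earlier results of these data known. All 9 RGS genes are described in every comparison. Named pathway genes are the 3 called genes of largest change per comparison and direction with a mean of at least 5 CPM, Tnf and those said to be picked later. Batch and replicate numbers of the labels are the same, which pairs libraries across groups. The deviations of same-numbered libraries from their group means correlated at -0.0631 to 0.0373 over 18 pairs, 0 above 0.1. The closest pair of replicates differed by 3.81 chi-square units per degree of freedom, above counting noise, so none was merged. Alternatives were DESeq2 1.42.0, other scalings, filters, gene types and lengths, a covariate, a replicate block and fits without each library. Upstream sequences came from RefSeq. Intervals cover the spread between libraries, and counts without molecular identifiers are not independent molecules. A gene among those nearest in profile is not reported here. Figures used matplotlib.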

Additional observations from a re-analysis of the deposited data

Results flagged for a closer look

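In Rgs2, Rgs3 and Rgs10 the response to LPS differed between KO and WT by the interaction test of edgeR, at an adjusted p below 0.05 and without a fold minimum. The difference, as the KO response minus the WT response on the log2 scale, was -0.58 for Rgs2, whose LPS libraries overlapped between the genotypes. It was -0.55 for Rgs10, whose level was higher in KO without LPS, and 0.68 for Rgs3, whose KO libraries lay below WT without LPS and above WT with it. For Rgs1 it was -1.14, given as a description, because its lower level in KO LPS was known when the list was made and makes up most of this value. Over all genes tested 16.8% met the same limit. No group held more than 3 libraries, so no library was examined for standing apart within its group.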

How the results depend on the processing

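Of the log2 fold changes of the 9 genes, 421 under other settings and 317 without 1 library had the direction and side of the limits reported, against 15 and 7 that did not. The replicate block changed no call, with 6 RGS genes called for LPS in WT and 0 between the genotypes without LPS. For LPS in KO they were 7, among them Rgs1, whose value there is a description. Rgs1 is left out of the counts that follow except where said, since it was known to be lower in KO LPS when the list was made. Between the genotypes after LPS, Rgs16 passed with no filter and without WT LPS replicate 1. Rgs2 passed there at any fold change, beside 14.3% of all genes tested. Without LPS the RGS genes called numbered 1 with the covariate and 3 at any fold change. In the interaction they numbered 2 and 4 with Rgs1 counted, whose value there is a description. Beside Rgs1 these were Rgs2 with the covariate, and Rgs2, Rgs3 and Rgs10 at any fold change. Pathway genes called between genotypes with LPS numbered 1 with the covariate, 32 at any fold change and 0 to 1 without 1 library. Without LPS they were 1 with protein-coding genes only, 1 with the covariate, 1 with the compared groups only and 32 at any fold change. For LPS in WT they were 84 at any fold change, and in the interaction 1 with no filter, 0 with the covariate, 22 at any fold change and 1 to 3 without 1 library.

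Values that changed sign, most of them near 0 and none called in the reported fit except where said, were as follows. With the covariate, Rgs18 (KO against WT, LPS) was -0.28, Rgs12 and Rgs19 (KO against WT, UT) 0.033 and -0.092, Rgs19 (LPS in KO) 0.0016 and Rgs16 (interaction, 0.39 as reported) -2.76. The same covariate turned the called Rgs16 rise in KO to -0.072. For KO against WT without LPS, DESeq2 and RLE scaling both gave -0.0090 for Rgs1 and -0.037 for Rgs19. Fits without 1 library ranged from -0.038 to 0.20 for Rgs18 (KO against WT, LPS), from -0.073 to 1.03 for Rgs16 (0.66 as reported) and from -0.17 to 0.030 for Rgs12 (KO against WT, UT), and were 0.031 and 0.046 for Rgs12 (LPS in KO) without KO LPS replicate 3 and KO UT replicate 2. With protein-coding genes only Rgs19 (interaction) was -0.012. The cause was not tested. Upper-quartile scaling moved the median of all genes by -0.18 in both LPS comparisons. With RLE scaling 134 of 302 called genes were higher in KO UT, against 159 of 283, and 110 of 308 in the interaction, against 81 of 335. Rgs16, with 9 to 63 counts, limits what depth can show.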
